A study of Mus musculus with 4 samples.

Results

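The Kruppel-like factors described here are 10 transcription factor genes, Klf2, Klf3, Klf4, Klf5, Klf6, Klf7, Klf9, Klf10, Klf11 and Klf13, measured in SVEC4-10 cells, a mouse endothelial line from lymph node vessels transformed with SV40. They are a listed set, matched by the symbol that the platform annotation gives, and make up 10 of the 18193 genes with a symbol of their own on the array. In probe sets, the units in which the array reads a transcript, they account for 34 of 34945. Where a gene had several probe sets, the one with the highest mean over the 4 arrays stands for it. The others are given or summarised beside it.

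The first group was transduced with a pLENTI6/Block-iT lentivirus carrying a short hairpin RNA against Mical2, an enzyme that oxidises actin, and the second with the same backbone carrying a hairpin against Mical3, its relative. The controls were cells transduced with the vector without an insert and untreated cells of the same line. Transduced cells were kept under blasticidin selection, and no selection is stated for the untreated ones. Each group is 1 array of total RNA pooled from 3 biological replicates, so no spread between replicates can be seen, no p-value is given, and the number of arrays limits the precision.

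All values are log2 levels computed by the authors with RMA, so that a difference of 1 is 2-fold. A gene is called higher or lower when it differed by at least 1 with the highest of the compared levels at or above a floor of 5.41, which is the median over all probe sets and arrays. For a hairpin array, the difference had to hold against both controls in the same direction. As a yardstick, the difference between arrays by 1 probe set of a gene was set against that by another. The standard deviation of this disagreement, divided by the square root of 2, was 0.24 to 0.36 over 5198 genes, depending on the pair of arrays. The division scales it to a single probe set, so the disagreement itself is larger. That figure leaves out all variation between cultures.

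The labels were checked first. On its own array Mical2 read 5.53 with each of its probe sets, while they gave 6.0 and 6.08 for the array labelled Mical3, 4.64 and 5.14 with the vector and 5.33 and 5.60 untreated. Mical3 read 7.24 on its own array, 6.83 on the array labelled Mical2, 7.29 with the vector and 7.39 untreated. Neither target was lower by 2-fold than both controls on its own array. Mical2 was above the vector array there by both probe sets, and Mical3 was lowest on the array labelled Mical2. A knock-down of 2-fold was thus not seen in the transcript levels of either target, whether the labels hold was not tested, and every direction below is between arrays named by their labels. Of 12 endothelial markers, 4 (Kdr, Flt1, Eng and Esam) were at or above the floor on every array, and Pecam1, Cdh5, Tie1, Vwf and Erg lay below it throughout. Of 10 fibroblast or mural markers, 7 or 8 were at or above the floor on each array, with a mean level of 9.62 on the array labelled Mical2, 7.51 on the one labelled Mical3, 8.10 with the vector and 9.66 untreated. The vector array had 6 of these 10 called lower than the untreated one, where 2.57% of 11849 genes were, among them Pdgfra at 6.16 against 10.40. On the array labelled Mical3, Col1a2 and Pdgfrb were called lower, at 6.19 and 3.55, against 11.64 and 8.13 with the vector and 14.49 and 10.28 untreated. Of 6 lymphatic endothelial markers, Mmrn1 was called higher and Flt4 lower on both hairpin arrays. Over all genes, 0.977% were called higher and 1.75% lower for Mical2, and 1.38% and 2.49% for Mical3. Pdpn was the brightest of the 6 on every array, at 11.67 or more, and was called in no comparison. Prox1, Lyve1 and Reln lay below the floor throughout. Of 6 epithelial markers, 3 or 4 reached the floor on each array, with mean levels of 5.96 for Mical2, 6.05 for Mical3, 5.19 with the vector and 5.81 untreated. Krt8 and Krt18 were called lower with the vector than untreated and Krt18 higher for Mical3, while Cdh1 lay below the floor throughout. Of 5 leukocyte markers measured, 2 or 3 reached it, with mean levels of 5.07, 5.12, 5.53 and 4.99 in the same order. Cd68 was called higher with the vector, at 8.0 against 5.93 untreated, and Ptprc lay below the floor throughout. In bulk RNA fewer cells of a type and less RNA per cell cannot be told apart, and the part of these markers in the results below was not tested.

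Kruppel-like factors bind GC-rich and CACCC elements in DNA through zinc fingers at their carboxyl end, and differ in the rest of the protein, which makes some of them activators, some repressors and some both. In endothelium KLF2 and KLF4 are known as genes switched on by laminar shear stress, through the kinases MEK5 and ERK5 and factors of the MEF2 family, and as inducers of an anti-inflammatory and anticoagulant programme. KLF5 and KLF6 are known from growth and vessel injury, KLF9 from glucocorticoid signalling, and KLF10 and KLF11 as early genes of TGF-beta signalling.

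RefSeq's promoter table of build GRCm38.p6 matched 8 of the 10 genes, all but Klf5 and Klf10. Those of Klf2, Klf4, Klf6 and Klf9 are shown because these genes were called in a comparison with a control array. Each line gives the 250 bases before the annotated start, with capitals on matches to the motifs named for each gene after them. Matches to GGGCGG and CCACCC, counted further on, are left in lower case.
Klf2, chr8:72318812-72319061, + strand: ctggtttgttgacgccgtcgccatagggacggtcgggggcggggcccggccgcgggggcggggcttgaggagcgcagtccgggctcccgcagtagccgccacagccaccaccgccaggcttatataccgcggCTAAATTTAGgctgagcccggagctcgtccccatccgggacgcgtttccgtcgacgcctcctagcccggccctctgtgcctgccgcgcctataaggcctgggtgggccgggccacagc
Klf4, chr4:55532476-55532725, - strand: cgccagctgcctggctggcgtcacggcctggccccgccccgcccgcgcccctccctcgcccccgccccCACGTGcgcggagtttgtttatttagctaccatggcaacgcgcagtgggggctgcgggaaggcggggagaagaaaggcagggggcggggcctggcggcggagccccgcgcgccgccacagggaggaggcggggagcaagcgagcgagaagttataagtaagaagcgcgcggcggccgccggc
Klf6, chr13:5861239-5861488, + strand: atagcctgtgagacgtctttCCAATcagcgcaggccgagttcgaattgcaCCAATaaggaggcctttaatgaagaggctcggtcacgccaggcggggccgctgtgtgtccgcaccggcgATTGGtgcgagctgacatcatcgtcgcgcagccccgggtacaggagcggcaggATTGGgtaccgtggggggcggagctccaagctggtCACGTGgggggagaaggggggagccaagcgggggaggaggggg
Klf9, chr19:23140976-23141225, + strand: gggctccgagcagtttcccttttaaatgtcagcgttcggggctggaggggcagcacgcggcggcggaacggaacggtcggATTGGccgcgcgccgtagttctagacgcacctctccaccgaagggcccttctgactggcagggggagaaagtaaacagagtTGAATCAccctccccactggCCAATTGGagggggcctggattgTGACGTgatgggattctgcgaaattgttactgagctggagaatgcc

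The capitals in Klf2 mark a match to the MEF2 consensus, 118 to 109 bases before the start. Of the 8 promoters, only that of Klf2 held one, against 2.92% of the 32851 mouse promoter windows of the same length, both strands searched for every motif. In Klf4 the capitals mark the E box CACGTG, which 6.02% of all windows and 3 of the 8 held. In Klf6 they mark 4 CCAAT boxes, of which 2 read ATTGG on the strand shown, and the same E box. The capitals in Klf9 mark the AP-1 letters TGANTCA (6.75% of all windows), the letters TGACGT of a CRE (6.47%) and 3 CCAAT boxes, a pair of which overlap on opposite strands as CCAATTGG. CCAAT was in 33.8% of all windows and in 4 of the 8. The GC box GGGCGG, a sequence that SP and Kruppel-like factors bind, was in 7 of the 8 and in 32.7% of all windows, and CCACCC in 4 of the 8 and 28.1%. None of the 8 matched the CArG box of SRF, found in 1.47% of all. The 8 windows were 59.2% to 78.4% G or C, against a median of 52.4% over all, and a match is a string of letters, not a bound site.

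All 10 factors lay above the floor on all 4 arrays by their main probe set. Over the 34 probe sets, 27 were at or above it on every array and 5 on none. Klf5 had the widest span of the 10 between its highest and its lowest array, at 2.20, and Klf13 the narrowest, at 0.17. Spans of at least 1 were also seen for Klf6 (1.66), Klf2 (1.61), Klf4 (1.26), Klf3 (1.08) and Klf9 (1.05).

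**Figure D1:**
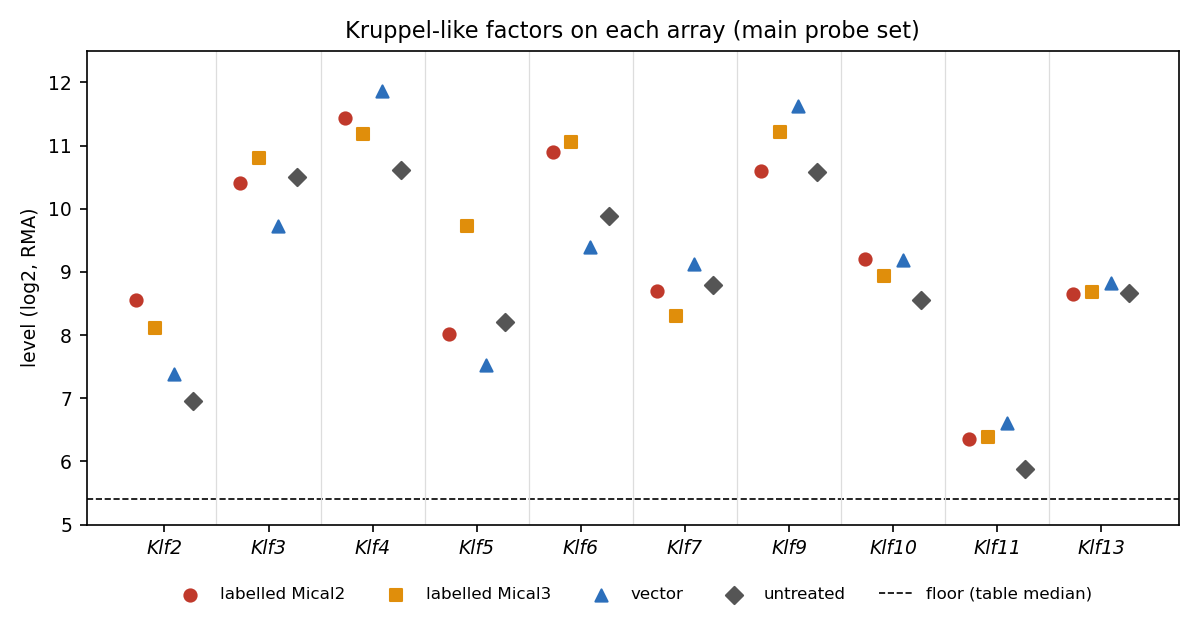
Level of each Kruppel-like factor (log2, RMA, main probe set) on the 4 arrays, 1 point each in the order labelled Mical2, labelled Mical3, vector and untreated, with the floor of 5.41 dashed. Klf2 and Klf6 stand higher on both hairpin arrays than on both controls, and Klf5 stands apart on the array labelled Mical3 at 9.72. Levels of different genes come from different probes and are not compared.

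Klf2, the flow-responsive factor of endothelium, was higher on both hairpin arrays than on either control. It read 8.56 on the array labelled Mical2, 8.11 on the one labelled Mical3, 7.39 with the vector and 6.95 untreated. The order of the arrays was therefore Mical2, Mical3, vector, untreated, with gaps of 0.45, 0.72 and 0.44 between neighbours. Against the vector array, the array labelled Mical2 was higher by 1.17 (2.25-fold), and against the untreated array by 1.61 (3.05-fold), so Klf2 was called higher there. For the array labelled Mical3 the differences were 0.72 and 1.16, which misses the call against the vector. Klf2 has 1 probe set, so this pattern has no second reading.

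Klf4, which shares much of Klf2's endothelial programme, had another order. It stood at 11.43 on the array labelled Mical2, 11.19 on the one labelled Mical3, 11.87 with the vector and 10.61 untreated. The vector array was highest and the untreated array lowest, with the hairpin arrays between them. The second Klf4 probe set gave the same order, with 9.87, 9.72, 10.32 and 9.03 on the same arrays. The vector array was called higher than the untreated one, by 1.26 (2.39-fold) with the main probe set and by 1.29 with the other. Both hairpin arrays were below the vector array (by -0.44 for Mical2 and -0.68 for Mical3) and above the untreated one (by 0.82 and 0.58), so no call was made for them.

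Klf6, an early response gene induced in injured vessel wall, was called higher on both hairpin arrays. It read 10.89 on the array labelled Mical2, 11.05 on the one labelled Mical3, 9.39 with the vector and 9.88 untreated. The hairpin arrays lay 0.16 apart, within the yardstick, and the lower of them stood 1.01 above the higher control. For Mical2 the differences were 1.50 from the vector (2.83-fold) and 1.01 from the untreated array (2.01-fold), and 1.01 is at the limit of the size rule. For Mical3 they were 1.66 (3.16-fold) and 1.17 (2.25-fold).

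All 5 Klf6 probe sets put both hairpin arrays above both controls. All 5 also put the array labelled Mical2 below the one labelled Mical3, by -0.35 to -0.16, where the yardstick was 0.28. Their differences for Mical2 ranged from 0.70 to 1.50 against the vector and from 0.69 to 1.01 against the untreated array. For Mical3 they ranged from 0.98 to 1.66 and from 0.99 to 1.30. The vector array was below the untreated one by 3 probe sets and above it by 2, from -0.49 to 0.25, so the order of the 2 controls depended on the probe set. With the mean of the 5, Klf6 was no longer called for Mical2, at 0.98 against the vector and 0.89 against the untreated array.

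Klf5, a factor of proliferating smooth muscle and epithelium, set the array labelled Mical3 apart. It stood at 8.02 on the array labelled Mical2, 9.72 on the array labelled Mical3, 7.52 with the vector and 8.21 untreated. The array labelled Mical3 was 1.51 above its nearest neighbour, and the other 3 arrays spanned 0.69. Klf5 was called higher there, by 2.20 against the vector (4.59-fold) and 1.51 against the untreated array (2.85-fold). Between the hairpin arrays it was lower on the one labelled Mical2, by -1.70, the 1 call among the 10 factors in that comparison, where 3.72% of 11928 genes were called lower, 3.81% higher and 7.53% in either direction. A dimmer probe set gave the same order of arrays at 4.99, 5.41, 4.42 and 5.12, reaching the floor on the array labelled Mical3 alone, with differences of 0.99 and 0.29. The third was below the floor on all 4, at 3.80, 3.98, 4.11 and 3.68, and gave another order. With the mean of the 3 probe sets Klf5 was not called, at 1.02 and 0.70.

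Klf3, a repressor that recruits the corepressor CtBP, stood lowest on the vector array. It read 10.40 on the array labelled Mical2, 10.80 on the one labelled Mical3, 9.72 with the vector and 10.50 untreated. The other 3 arrays lay within 0.40 of each other, and the vector array was 0.68 below the nearest of them. Of the 6 Klf3 probe sets that reached the floor, all 6 were lower on the vector array than on the untreated array (from -1.11 to -0.11), and all 6 were higher on both hairpin arrays than on the vector. By the probe set with the widest span the levels were 7.49 and 7.66 on the hairpin arrays, 6.19 with the vector and 7.30 untreated. Against the untreated array, the array labelled Mical3 was higher by all 6, though by 0.36 at most, and the array labelled Mical2 by 3 of the 6.

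Klf9, a factor induced by glucocorticoid and thyroid hormone, was highest on the vector array. It stood at 10.59 on the array labelled Mical2, 11.21 on the one labelled Mical3, 11.63 with the vector and 10.58 untreated. The array labelled Mical2 and the untreated array differed by 0.01, and the other arrays lay above both. The vector array was called higher than the untreated one, by 1.05 (2.07-fold). All 5 Klf9 probe sets above the floor agreed in direction there, with 0.66 to 1.05, and all 5 put the array labelled Mical3 above the untreated one, by 0.53 to 0.90. Against the vector array they gave -1.12 to -0.64 for Mical2, but -0.42 to 0.19 for Mical3, with 3 lower and 2 higher. With the mean of all 7 probe sets the difference between the vector and untreated arrays was 0.63, and Klf9 was not called.

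**Figure D2:**
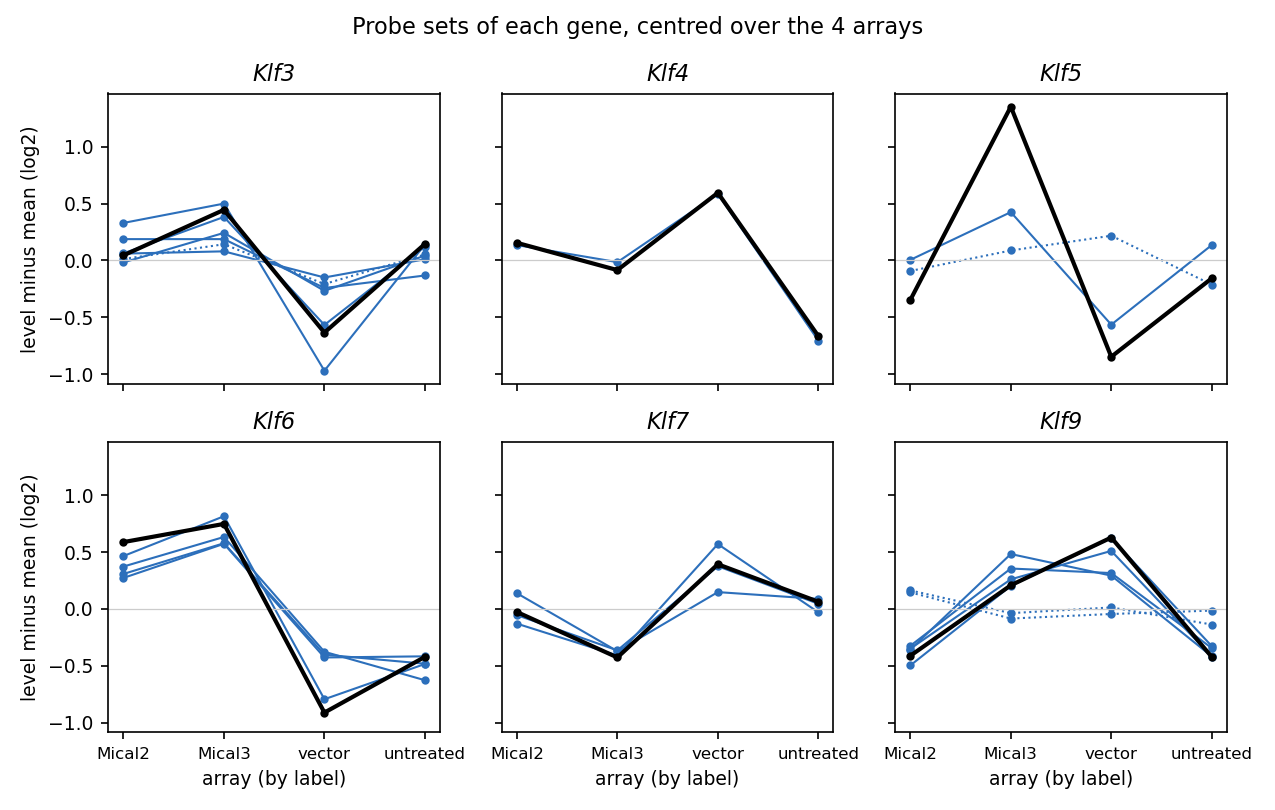
Levels of every probe set of Klf3, Klf4, Klf5, Klf6, Klf7 and Klf9, each minus its own mean over the 4 arrays (log2). The thick black line is the main probe set, dotted lines are probe sets below the floor on every array, and lines only join the points of a probe set. Both probe sets of Klf4 run close together, all 5 of Klf6 put the hairpin arrays above the controls by differing amounts, and Klf5 rests on 1 bright probe set that spans 2.20.

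Klf10 and Klf11, the TGF-beta inducible pair that recruits the corepressor Sin3A, were lowest on the untreated array. Klf10 was at 9.20 on the array labelled Mical2, 8.94 on the one labelled Mical3, 9.18 with the vector and 8.55 untreated. Klf11 was at 6.35, 6.38, 6.60 and 5.88 on the same arrays. Klf10 spanned 0.65 and Klf11 0.72, with the untreated array 0.39 and 0.47 below the next. The vector array was above it by 0.63 for Klf10 (1.55-fold) and 0.72 for Klf11 (1.65-fold), at the percentiles 91.0 and 93.0 of all genes at or above the floor. Each has 1 probe set, and neither was called in any of the 4 comparisons.

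Klf7, known from neuronal development and fat cells, was lowest on the array labelled Mical3. It read 8.70 on the array labelled Mical2, 8.30 on the array labelled Mical3, 9.12 with the vector and 8.79 untreated. All 4 Klf7 probe sets placed the array labelled Mical3 below both controls, by -0.98 to -0.52 against the vector and -0.49 to -0.38 against the untreated array. None of these reached 2-fold. Klf13, which drives the chemokine gene Ccl5 in T cells, had the narrowest range by its main probe set, less than the yardstick. It read 8.65, 8.68, 8.82 and 8.67 in the order Mical2, Mical3, vector, untreated. Another probe set spanned 0.31, at 7.87, 7.68, 7.99 and 7.73, and the remaining one lay below the floor throughout.

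For the array labelled Mical2 against both controls, 2 of the 10 factors were called, Klf2 and Klf6, both higher, where 0.977% of 12072 genes were called higher and 2.73% in either direction. For the array labelled Mical3 it was also 2 of 10, Klf5 and Klf6, both higher, where 1.38% of 12011 genes were called higher and 3.87% in either direction. These comparisons share their control arrays. No factor was called lower in either, where 1.75% of genes were called lower for Mical2 and 2.49% for Mical3. The members were chosen with earlier results of these arrays known, and Klf2 and Klf6 were among the genes those results named. Over all 10, the array labelled Mical2 was above both controls for 3 factors, below both for 2 and between them for 5, against 31.7%, 39.2% and 29.1% of the 12166 genes that reached the floor on any array. The array labelled Mical3 was above both for 4, below both for 1 and between for 5, against 35.3%, 37.2% and 27.5%. The median difference over the 10 was -0.08 against the vector and 0.24 against untreated cells for Mical2, and -0.18 and 0.54 for Mical3. Over all genes at or above the floor on an array compared, the medians were -0.05, -0.03, -0.03 and 0.01 in the same order.

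**Figure D3:**
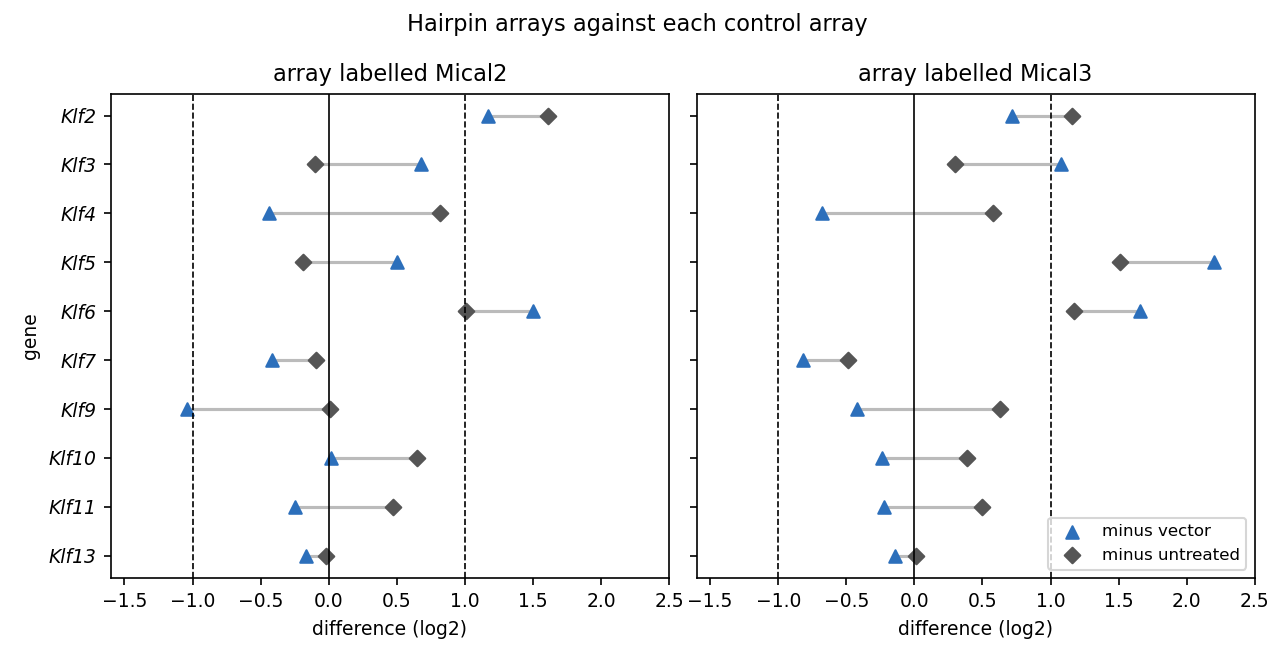
Difference (log2) of each Kruppel-like factor on the array labelled Mical2 (left) or labelled Mical3 (right) against each control, the vector array (triangles) or the untreated one (diamonds), 1 array each, with dashed lines at 2-fold. Both marks lie at or beyond the right dashed line for Klf2 and Klf6 on the left and for Klf5 and Klf6 on the right.

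Between the vector array and the untreated one, Klf4 and Klf9 were called higher, 2 of the 10 factors, where 3.26% of 11849 genes were called higher and 5.83% in either direction. No factor was called lower there, against 2.57% of genes. The next differences upward were 0.72 for Klf11, 0.63 for Klf10 and 0.44 for Klf2. Klf3, Klf5 and Klf6 were lower on the vector array, by -0.78, -0.69 and -0.49. The untreated array was the lowest of the 4 for 5 factors (Klf2, Klf4, Klf9, Klf10 and Klf11) and the highest for none, against 16.2% and 14.8% of the 12166 genes. For Klf9 it was lowest by 0.01 alone. The second brightest Klf9 probe set read 10.25 untreated, above 10.08 on the array labelled Mical2.

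**Figure D4:**
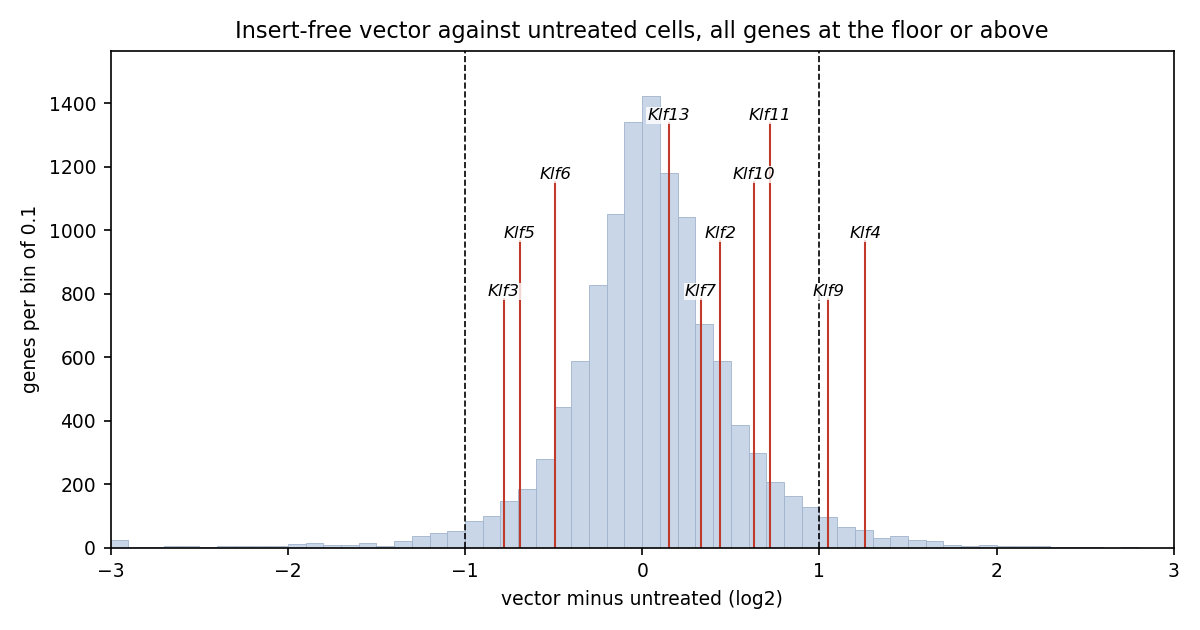
Number of genes per bin of 0.1 in the difference of the vector array from the untreated array (log2), over the 11849 genes with a level at or above the floor on 1 of the 2, with the 24 genes beyond 3 put in the outermost bins. Red lines mark the 10 Kruppel-like factors at heights chosen for legibility, and the dashed lines mark 2-fold. Klf4 and Klf9 lie beyond the right dashed line, and Klf3, Klf5 and Klf6 lie left of 0.

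Pathways around these factors were followed with gene lists. Of 15 regulators upstream of KLF2 and KLF4, from the kinases MEK5 and ERK5 to the MEF2 factors and the CCM complex that restrains them, none was called in any of the 4 comparisons, and 13 reached the floor on at least 1 array. Of all genes, 2.73% were called for Mical2, 3.87% for Mical3, 5.83% with the vector and 7.53% between the hairpin arrays. A lack of calls in so short a list therefore says little. Mapk7, which encodes ERK5, stood at 7.42 on the array labelled Mical2, 7.92 on the one labelled Mical3, 7.61 with the vector and 7.53 untreated. Map3k3, a kinase upstream of MEK5, was at 8.58, 9.41, 9.41 and 8.94. The endothelial MEF2 gene Mef2c lay below the floor throughout, at 4.41 to 4.65. Mef2a and Mef2d lay above it throughout, at 9.86, 10.22, 10.42 and 9.97 and at 8.53, 8.3, 8.67 and 8.21 on the same arrays. Krit1, of the CCM complex, was at 8.49, 8.19, 7.75 and 8.08, and Ccm2, of the same complex, at 10.36, 11.23, 10.82 and 11.14, which made Krit1 highest and Ccm2 lowest on the array labelled Mical2.

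Endothelial genes that KLF2 or KLF4 is known to induce were mostly dim. Of 12, 7 reached the floor on some array, and Thbd (thrombomodulin), S1pr1 and Tek lay below it on all 4. Nos3, the endothelial nitric oxide synthase, read 5.38 on the array labelled Mical2, 5.42 on the one labelled Mical3, 5.22 with the vector and 5.10 untreated, around the floor. None of the 12 was called for Mical2, where 2.73% of all genes were. For the calls that follow, the shares of all genes were 1.38% higher for Mical3, 3.72% lower between the hairpin arrays and 2.57% lower with the vector. For Mical3, Slc9a3r2, a scaffold protein of membrane transporters, was the 1 called, as higher, at 9.19 (7.49 on the array labelled Mical2, 8.12 with the vector and 8.10 untreated), and it was lower on the array labelled Mical2 than there by -1.70. Adamts5, an aggrecan-cleaving protease, was called lower on the vector array than on the untreated one, at 6.95 against 9.65, with 9.77 and 10.19 on the hairpin arrays. Klf4 was called in the opposite direction in that comparison. The rest of the list that reached the floor there went both ways, without a call. Cyp1b1, the brightest of the 12, was higher with the vector by 0.64, at 12.7 against 12.06. Ptgds and Slc9a3r2 were higher by 0.22 and 0.02, and Adamts4 was lower by -0.95. A link of these genes to Klf4 was not tested.

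Among genes that KLF2 or KLF4 is known to repress, 9 of 10 were measured and none was called for Mical2, where 2.73% of all genes were. For Mical3 the share called higher was 1.38%. F3, the tissue factor gene that starts coagulation, was called higher for Mical3, at 10.51, with 9.73 for Mical2, 9.22 with the vector and 8.94 untreated. Between the vector and untreated arrays, 6 of the 9 reached the floor on either array and 2 of those were called lower with the vector, where 2.57% of 11849 genes were. They were Edn1, the vasoconstrictor endothelin, at 6.61 against 8.46, and Thbs1, the angiogenesis inhibitor thrombospondin, at 9.16 against 10.73. The adhesion molecule gene Vcam1 was at 10.64 on the array labelled Mical2, 9.97 on the one labelled Mical3, 9.97 with the vector and 10.92 untreated. It was thus lower with the vector than untreated, by -0.95. Ccl2, F3 and Ace were higher with the vector, by 0.34, 0.28 and 0.12, so the list went both ways there. Sele and Icam1 lay below the floor throughout.

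Of 10 glucocorticoid and clock genes, the setting in which Klf9 is best known, 2 were called higher on the vector array than on the untreated one. They were Tsc22d3 (GILZ) and the clock output gene Dbp, where 3.26% of 11849 genes were called higher. Klf9 was called in the same direction there. Tsc22d3 read 8.12 on the array labelled Mical2, 7.32 on the one labelled Mical3, 9.71 with the vector and 8.44 untreated. Dbp read 7.55, 6.44, 8.85 and 7.56. Both were called lower on the array labelled Mical3, where 2.49% of 12011 genes were called lower and 1.38% higher. Klf9 lay between the controls there. The rest of the list went both ways between the vector and untreated arrays. Per1, the receptor gene Nr3c1, Sgk1 and Per2 were higher with the vector, by 0.68, 0.51, 0.41 and 0.21. Dusp1, the glucocorticoid target Fkbp5, Errfi1 and Zbtb16 were lower, by -0.65, -0.51, -0.50 and -0.25. The phosphatase gene Dusp1 was called higher for Mical3, at 12.21 with 10.32 for Mical2, 8.92 with the vector and 9.57 untreated.

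In the TGF-beta list, 13 of 14 genes were measured and none was called for either hairpin array. Over all genes, 2.73% were called in either direction for Mical2 and 3.87% for Mical3, so this says little. Tgfb1, the ligand, was called higher on the vector array than on the untreated one, at 6.26 against 5.24. Smad7, the inhibitory SMAD, was at 9.35 for Mical2, 9.24 for Mical3, 8.33 with the vector and 8.66 untreated. Of 14 immediate early genes, Fos was called higher on both hairpin arrays (10.40 and 10.01, against 8.71 with the vector and 8.67 untreated), as Klf6 was. Dusp1 and Ier3 were called higher and Egr2 lower for Mical3. Atf3 was called higher on the vector array than on the untreated one, at 10.31 against 7.82. Over all genes, 0.977% were called higher for Mical2, 1.38% higher and 2.49% lower for Mical3, and 3.26% higher with the vector. Egr1 was at 10.72, 9.89, 10.64 and 10.97 in the order Mical2, Mical3, vector, untreated, and was called in none.

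For each factor that spanned at least 1, the genes with the nearest profile over the 4 arrays were found by the Euclidean distance between mean-centred log2 levels, among 11604 genes with a proper name that reached the floor on any array. With 4 arrays many genes share any profile, so this only describes these arrays. Nearest to Klf6 was Hbegf, a heparin-binding growth factor, at a distance of 0.02, with 9.19 for Mical2, 9.34 for Mical3, 7.67 with the vector and 8.16 untreated. Next came Smim3 (0.14) and Sbsn (0.27). Nearest to Klf2 were Cirbp, a cold-inducible RNA-binding protein, at 0.17, Ctsf and Zfp764, both at 0.21. Klf5 was nearest to Fhl1, a muscle LIM protein, at 0.16, then to Papss2 (0.23) and Cdc42ep3 (0.28). Klf4 was nearest to Tlr4, the receptor for bacterial lipopolysaccharide, at 0.06, then to Dhrs7 (0.16) and Rhebl1 (0.18). For Klf3 they were Ugcg (0.04), Sorbs3 (0.06) and Jpt1 (0.08), and for Klf9 Zfp3 (0.10), Flcn (0.11) and Oas1c (0.12).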

How the data were processed

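The authors deposited log2 levels for 45101 probe sets on each array, computed with RMA per the submitters' processing notes, with version and settings not given in the sources used here. Array medians lay between 5.40 and 5.44, and no further scaling was applied. Symbols came from the platform annotation, updated by Entrez identifier through RefSeq's gene table, which matched 34741 of 34945 probe sets with 1 symbol. The 932 with several symbols, and those without one, were not used. RMA compresses differences of dim probe sets, which understates them.

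With 1 array per group there is no test, and calls follow the size rule given above, applied to all genes. A run on simulated data required recovery only of shifts of 3 log2 either way. The largest difference of any of the factors was 2.20, so that run does not check calls of the size made here. The members and gene lists were chosen with earlier results of these data known. From each list, any called gene and up to 3 others with the largest difference from the vector array could be named, and a few more were named for their role after their values were seen. Alternatives were another control, fold or floor, other probe set rules, a loess fit and 16 added on the linear scale. Python 3.11.15, numpy 2.4.6, pandas 2.3.3, statsmodels 0.14.6 and matplotlib 3.10.9 were used.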

Additional observations from a re-analysis of the deposited data

How the results depend on the processing

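Each hairpin array had 2 of the 10 factors called, as had the vector array, and the comparison of hairpin arrays had 1. These counts became 0 for the first 3 comparisons at 3-fold, and 1, 1, 1 and 0 with probe sets averaged per gene, in the order Mical2, Mical3, vector against untreated and Mical2 against Mical3. The count for Mical2 was 1 (Klf2) with 16 added on the linear scale, which left Klf6 out. At 1.5-fold the vector array had 6 of 10 called (17.6% of all genes), the comparison of hairpin arrays 2 (19.2%), Mical3 3 (11.0%) and Mical2 2 (8.11%). With the vector as the only control, Klf9 joined as lower for Mical2 and Klf3 as higher for Mical3, and with the untreated array alone Klf2 joined as higher for Mical3. For each call lost with averaged probe sets, the other probe sets of the gene gave smaller differences, and why they did was not tested. The called members were the same with a floor at the upper quartile and after loess. They were also the same without a floor and without probe sets open to cross-hybridisation, but those settings could not change them. All 10 lay above the floor, and none had such a probe set as its main one. Of 240 member differences under other probe set rules or scalings, 229 moved by less than the spread between probe sets, 11 by more, all with averaged probe sets, and no called difference changed sign. The 229 include 60 without probe sets open to cross-hybridisation, which could not move. Over all genes, 329 were called for Mical2, against 1286 with the vector as the only control, 979 at 1.5-fold, 112 at 3-fold, 206 with the higher floor and 218 with averaged probe sets. For Mical3 it was 465, against 1402 with the vector alone, 1323 at 1.5-fold and 163 at 3-fold. The vector array had 691 against the untreated array, with 2084 at 1.5-fold, 195 at 3-fold and 446 with the higher floor. Between the hairpin arrays it was 898, with 2287, 375 and 579 under the same settings. No paired analysis was possible because each group has 1 array.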

Other observations

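Of the other Kruppel-like and SP factors, 13 of 15 listed genes were measured and 8 reached the floor on some array. Klf12, a repressor that binds CtBP, was the 1 called in any comparison, as higher with the vector than untreated, where 3.26% of all genes were. Its level was 6.12 with the vector and 4.62 untreated, while the array labelled Mical2 read 3.89 and the one labelled Mical3 read 4.89. Another of its 5 probe sets read 5.24 with the vector and 3.78 untreated, below the floor, and the other 3 differed by 0.09 to 0.32 there. Sp1, a general activator at GC boxes, was at 10.75 for Mical2, 10.55 for Mical3, 11.39 with the vector and 10.92 untreated, with the vector array highest by all 3 of its probe sets. Sp3, its competitor at the same sites, was at 9.40, 9.34, 8.52 and 9.13, with the vector array lowest. Klf16 was at 8.73, 8.79, 8.08 and 8.41. The erythroid factor Klf1, and Klf15 and Klf17, lay below the floor on every array.

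Of 13 cofactors and ubiquitin ligases of the family, all at or above the floor, none was called in the 3 comparisons with controls. There 2.73% of all genes were called for Mical2, 3.87% for Mical3 and 5.83% with the vector. The acetyltransferase genes Ep300 (9.69, 9.66, 10.52 and 10.18) and Crebbp (9.89, 10.05, 10.64 and 10.41, each in the order Mical2, Mical3, vector, untreated) were lower on both hairpin arrays than on both controls. Kat2b was called lower on the array labelled Mical2 than on the one labelled Mical3, at 10.27 against 11.28. In that comparison 3.72% of all genes were called lower. Wwp1, a ligase that marks KLF2 and KLF5 for degradation, was at 9.20, 9.44, 8.66 and 9.01.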
